A study of Mus musculus with 186 samples.

Results

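Wnt ligands, their Frizzled receptors, the secreted proteins that hold Wnts back, the R-spondins and their Lgr receptors, and the pathway's own feedback genes were described across the lung and skin of mice given systemic bleomycin, a model of scleroderma. The genes were taken by a rule on symbols: protein-coding genes of the GENCODE M21 annotation named Wnt, Fzd, Sfrp, Dkk or Rspo with a number, and Frzb, Lgr4, Lgr5, Lgr6, Axin2, Lef1, Rnf43, Znrf3 and Wif1. This gave 50 of the 22095 gene IDs in the count table: 19 ligands, 10 Frizzled receptors, 10 secreted inhibitors, 4 R-spondins, 3 Lgr receptors, 3 feedback genes (Axin2, Rnf43 and Znrf3) and the transcription factor Lef1. After the filter on low counts, 41 were tested in lung and 45 in skin. Dkk4, Wnt1, Wnt8a and Wnt8b were tested in neither tissue, Dkk1, Fzd9, Wnt16, Wnt3 and Wnt6 were not tested in lung, and Wnt9b was not tested in skin.

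All mice were C57BL/6 females about 12 weeks old. Bleomycin, at 10 mg/kg/day, or PBS was injected under the shaved skin between the shoulder blades on 5 days a week for 2 weeks. From day 12 some mice also received SB525334, an inhibitor of the TGF-beta receptor kinase ALK5, or its vehicle by mouth (30 mpk for SB525334, given BID). A last dose is recorded here for the day 28 groups only, on day 27. In each tissue, bleomycin with SB525334 (days 21 and 28), bleomycin (days 7 and 14 without oral dosing, days 21, 28 and 42 with vehicle) and PBS (the same days, with vehicle from day 21) made 12 groups of 7 to 9 libraries, 93 libraries in all, from the superior lung lobe and from skin punches. No group given SB525334 after PBS, and none at day 42, was analysed here. Lung and skin libraries of a group carry the same replicate numbers, but no label says that a number marks 1 mouse, and none says that libraries of a group came from separate mice, so p-values measure the spread between these libraries.

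Wnts are secreted glycoproteins that bind Frizzled receptors together with Lrp5 or Lrp6 and keep beta-catenin from being degraded, so that it enters the nucleus and acts with Tcf and Lef1 proteins on target genes. Secreted Frizzled-related proteins (Sfrp1, Sfrp2, Sfrp4, Sfrp5 and Frzb) and Wif1 bind Wnts outside the cell, and some Dickkopf proteins (Dkk), such as Dkk2, block the Lrp co-receptors. Rnf43 and Znrf3 are membrane ubiquitin ligases that remove Frizzled receptors, and R-spondins bound to Lgr4, Lgr5 or Lgr6 take Rnf43 and Znrf3 away, which raises the response to Wnt. Axin2, a scaffold of the complex that degrades beta-catenin, is itself transcribed under beta-catenin in many tissues and is widely used as a readout of the pathway. Wnt signalling is known in lung for its part in alveolar repair and in skin for the growth phase of the hair cycle, and it has been studied widely in fibrosis.

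Total counts ran from 4.79 M to 38.34 M per lung library and from 14.68 M to 43.07 M per skin library. Some libraries stood apart from their groups: 17 in lung, among them 9 of day 28 with more than 7% of counts in ribosomal protein genes, 4 with epidermal transcripts (PBS day 7 replicates 5 and 6, PBS day 14 replicate 6 and bleomycin day 28 vehicle replicate 2) and bleomycin day 42 replicate 1 with liver transcripts, and 2 in skin with lung epithelial transcripts. Tissue labels held: 12 lung epithelial markers summed to at least 11040 CPM (counts scaled to a common library size) in lung libraries and to at most 1048 CPM in skin libraries, and 12 epidermal markers to at least 6968 CPM in skin and at most 1320 CPM in lung. A lung library went against its treatment label. In the library labelled bleomycin day 28 vehicle replicate 6, Eda2r, a p53 target, stood at 5.28 CPM, against 24.02 to 40.9 CPM in the other 6 libraries of that group, and the macrophage gene Trem2 stood at 2.59 CPM, against 25.5 to 85.1 CPM. In the library labelled PBS day 28 vehicle replicate 6, Trem2 stood at 19.6 CPM, against 1.80 to 8.35 CPM in the other 6, and Eda2r at 9.91 CPM, against 4.73 to 6.53 CPM, while Psrc1, another p53 target, was within their range. Without both libraries, 17 of the 18 bleomycin calls and all 9 SB525334 calls of day 28 lung described below were made, the exception being Rspo3, among 20 and 10 calls in all. No library was moved to another group.

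Levels are CPM after TMM scaling, and levels of different genes are compared per kilobase of exon. In PBS lung, Dkk3, grouped here with the inhibitors, and the receptor Fzd4 were the highest of the 50 genes, with medians of 30.2 and 27.7 CPM per kilobase over 39 libraries. Wnt2, a ligand of lung mesenchyme, was the highest of the ligands at a median of 7.50 CPM per kilobase, next to Wnt3a at 6.64, and their ranges of 5.59 to 11.5 and 4.38 to 8.20 CPM per kilobase overlapped. Frzb had a median of only 0.0682 CPM per kilobase in PBS lung. In PBS skin the receptor Fzd1 (26.9 CPM per kilobase), the R-spondin receptor Lgr4 (22.2), Sfrp1 (20.6) and Fzd7 (20.3) led, and Wnt3 (8.36) and Wnt7b (7.13) were the highest ligands. The ranges of these neighbours overlapped too, so their order within a tissue is that of the medians.

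Between tissues, 42 of the 46 genes tested in the fit of both tissues differed in PBS mice, 32 higher and 10 lower in skin than in lung, where 84.9% of all genes tested differed (44.3% higher and 40.7% lower). Dkk2, whose protein blocks Lrp5 and Lrp6, was higher in skin by 4.41 ± 0.15 (log2 difference ± SE; edgeR's quasi-likelihood test with Benjamini-Hochberg adjustment over all genes, adjusted p = 4.5e-66), and Lgr4 by 3.43 ± 0.12 (adjusted p = 9.25e-65). Wnt7a differed most in the other direction, at -4.64 ± 0.18 (adjusted p = 1e-59), and Wnt2 was also lower in skin, at -1.93 ± 0.14. Inhibitors and receptors stood at unlike levels in the 2 tissues: Sfrp1 was 2.47 ± 0.14 and Sfrp4 3.66 ± 0.22 higher in skin, and Fzd4 was -0.92 ± 0.07 in skin relative to lung.

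Bleomycin and PBS differed for many of these genes in each tissue, and more of them were lower than higher after bleomycin on each of the 5 days. Each count of calls is given with the percentage called among all genes tested, and then with the percentages called higher and lower. In lung, 21 of 41 Wnt genes were called at day 7 (31.7% of all genes), 5 higher and 16 lower (13.9% and 17.8%). At day 14, 30 were called (46.4%), 7 higher and 23 lower (21.0% and 25.4%), and at day 21, 20 (35.3%), 6 higher and 14 lower (15.9% and 19.4%). Day 28 gave 18 (38.1%), 8 higher and 10 lower (19.7% and 18.4%), and day 42 gave 15 (19.4%), 7 higher and 8 lower (12.6% and 6.77%). In skin, 22 of 45 were called at day 7 (46.2%), 1 higher and 21 lower (25.5% and 20.7%), and 29 at day 14 (59.6%), 3 higher and 26 lower (31.5% and 28.1%). Day 21 gave 27 in skin (41.2%), 2 higher and 25 lower (20.2% and 21.0%), day 28 gave 18 (24.3%), 4 higher and 14 lower (12.7% and 11.6%), and day 42 gave 8 (10.2%), 3 higher and 5 lower (5.28% and 4.96%). When only the bleomycin and PBS libraries of day 28 lung were fitted, none of its 18 calls was made, 11 were made without the libraries that stood apart, and 16 without the 4 libraries with epidermal transcripts, of which only bleomycin replicate 2 is of day 28. In skin, fitting only the 2 day 42 groups gave 4 calls, and with the level of a list of hair growth genes as a term there were 28 at day 28 and 19 at day 42. Sfrp1, Frzb, Wnt7b, Wnt2b and Znrf3 were called on all 5 days in lung, and Rspo1, Rspo3 and Fzd3 in skin. The counts in lung at day 28 and in skin at days 7 and 14 were close to the share called among all genes. The lower calls were further from it: in skin at day 21, 25 of 45 Wnt genes were lower, where 21.0% of all genes were, and in lung at day 14, 23 of 41 were lower, where 25.4% were. Without the 4 libraries with epidermal transcripts, 6 of the 30 lung calls of day 14 were lost, all of them lower calls. So were 6 of the 21 lung calls of day 7, again all lower. The median log2 fold change of the 41 lung genes was -0.329 at day 7 and -0.385 at day 14, against -0.018 and -0.017 for all genes, and by day 42 it was -0.115 against 0.021. The median of the 45 skin genes was -0.415, -0.615, -0.623, -0.268 and -0.130 at days 7, 14, 21, 28 and 42, against 0.023, 0.014, -0.034, -0.032 and -0.036 for all genes.

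**Figure D1:**
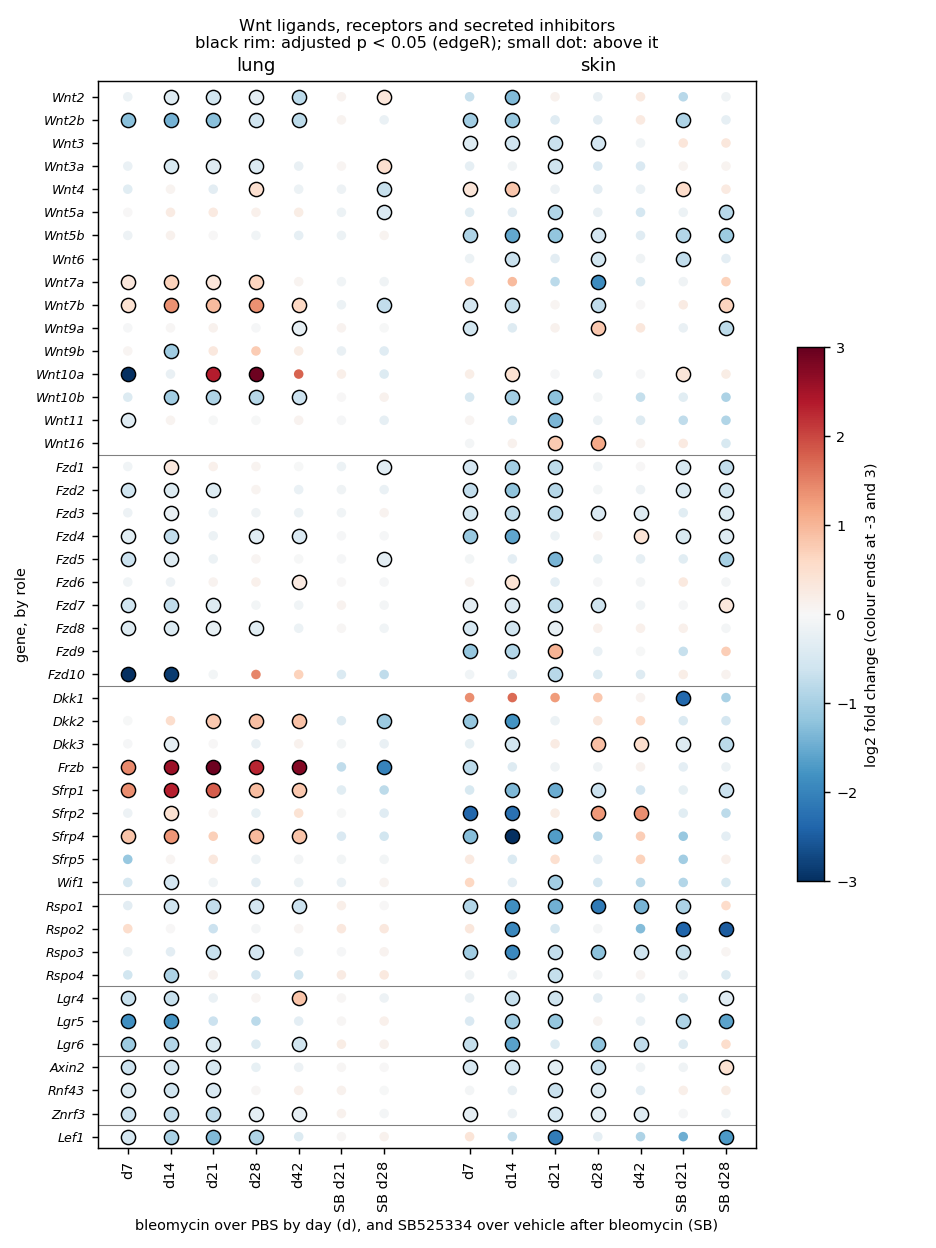
Log2 fold change of each tested Wnt gene (rows, grouped by role) in lung and in skin, for bleomycin over PBS on days 7 to 42 and for SB525334 over vehicle after bleomycin on days 21 and 28. Colour gives the log2 fold change, and large dots with a black rim are genes with an adjusted p under 0.05. Blue dots prevail in skin at days 7 to 21, and Sfrp1 and Frzb are red in lung on every day and pale or blue in skin.

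Several secreted inhibitors rose in lung after bleomycin: of 8 tested, 3, 4, 3, 4 and 4 were called higher at days 7, 14, 21, 28 and 42, and 2 lower at day 14. Of all genes, 13.9%, 21.0%, 15.9%, 19.7% and 12.6% were called higher on these days, and 25.4% lower at day 14. Sfrp1, which binds Wnts and Frizzled receptors, stood at 32.5, 49.4 and 76.7 CPM at day 7 (lowest, median and highest of 7 libraries) after bleomycin, against 13.0, 15.9 and 36.9 CPM of 8 libraries after PBS. At day 14 it stood at 56.0, 84.5 and 147 CPM after bleomycin, against 13.8, 15.1 and 39.8 CPM after PBS, and at day 21 at 29.5, 47.6 and 80.6 CPM, against 10.9, 13.6 and 17.5 CPM. At days 14 and 21 every bleomycin library was above every PBS library, which 15.7% and 19.2% of all genes showed in either direction. The log2 fold change was 1.40 ± 0.28, 2.33 ± 0.28, 1.82 ± 0.29, 0.92 ± 0.30 and 0.80 ± 0.28 (± SE) from day 7 to day 42, all called, with adjusted p = 9.78e-11 at day 14 (edgeR). Libraries came in 2 plates, and within plate 1 and plate 2 alone the day 14 value was 2.49 and 2.32. Plate 1 held only replicate 1 of each day 14 group, so its value sets 1 library against 1. At day 28 the groups overlapped, at 13.9, 33.2 and 102 CPM after bleomycin and 10.7, 14.0 and 83.9 CPM after PBS, where the lowest bleomycin and the highest PBS library were the 2 replicates numbered 6, and without them the fold change was 1.82.

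Frzb, the related inhibitor also called Sfrp3, was low in PBS lung and rose on every day. It stood at 0.610, 1.45 and 2.44 CPM at day 21 after bleomycin, against 0.0544, 0.191 and 0.319 CPM after PBS, with no overlap. From day 7 on, the log2 fold change was 1.45 ± 0.53, 2.56 ± 0.47, 2.95 ± 0.51, 2.29 ± 0.53 and 2.75 ± 0.49 on days 7, 14, 21, 28 and 42 (adjusted p = 3.05e-06 at day 21, edgeR). At day 42, bleomycin replicate 1, the library with liver transcripts, stood at 6.91 CPM, and the median of the group was 0.892 CPM, against 0.204 CPM after PBS. At day 7 the call was lost without the libraries that stood apart, where the fold change was 1.41 (adjusted p = 0.058).

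Sfrp4, of the same family, stood at 3.13, 3.76 and 6.59 CPM in lung at day 14 after bleomycin, against 1.09, 1.52 and 3.16 CPM after PBS. The lowest bleomycin and the highest PBS library were alike, and the medians lay further apart. It was called on days 7, 14, 28 and 42, with log2 fold changes of 0.84, 1.33, 0.97 and 0.85, and at day 21 the fold change was 0.71 ± 0.29 (adjusted p = 0.052, edgeR). At day 28, bleomycin vehicle replicate 2, with epidermal transcripts, held the highest value, at 9.62 CPM. Without the 4 libraries with epidermal transcripts the day 28 fold change was 0.35 (adjusted p = 0.321), and without all that stood apart, which are 5 of the 14 of that comparison, it was -0.09. The day 28 calls of Dkk2, Wnt2 and Wnt4 were also lost without the 4 (adjusted p = 0.0921, 0.072 and 0.227). Dkk2 was called later, at days 21, 28 and 42, with log2 fold changes of 0.80, 0.91 and 0.87, and the groups overlapped on each of these days (1.69 to 6.96 CPM after bleomycin and 1.41 to 2.82 CPM after PBS at day 42). Sfrp2 rose by 0.45 at day 14, while Dkk3 and Wif1 were lower at that day, with log2 fold changes of -0.27 and -0.55. The Wif1 call was lost without the libraries with epidermal transcripts. Without the 2 libraries numbered 6, the day 28 values were 3.18 for Frzb (2.29 with them) and 1.09 for Dkk2 (0.91 with them).

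**Figure D2:**
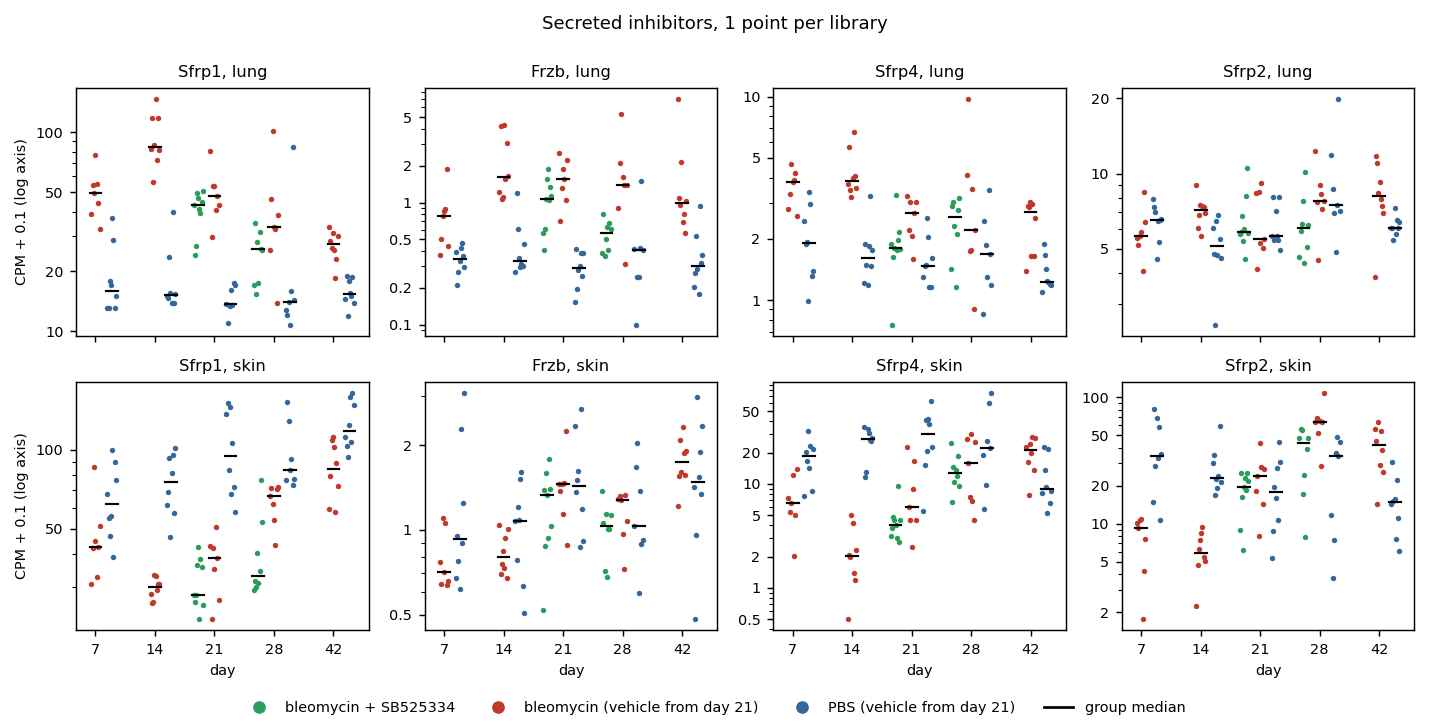
CPM of the secreted inhibitors Sfrp1, Frzb, Sfrp4 and Sfrp2 (log axis, 0.1 added) by day in lung (top) and skin (bottom), with 1 point per library and black lines at group medians. At day 14, bleomycin libraries lie above PBS libraries for lung Sfrp1 (medians 84.5 and 15.1 CPM) and below them for skin Sfrp1 (29.9 and 75.2 CPM).

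Transcripts of other cell types moved in the same lungs. The summed level of 14 macrophage markers differed by 0.644, 1.763, 2.054, 1.285 and 1.152 on the log2 scale at days 7, 14, 21, 28 and 42 (exact permutation tests over libraries with adjustment over 210 tests, p = 0.0274 at day 28 and 0.00155 on each other day). At day 14 it was 1990 to 3488 CPM after bleomycin, against 700.1 to 1196 CPM after PBS, with 13 of the 14 called higher and 1 lower. The summed level of 15 cell cycle genes differed by 1.503, 0.973 and 1.077 at days 7, 14 and 21 (adjusted p = 0.00251, 0.0246 and 0.00155), at 305.6 to 792.5 CPM after bleomycin and 179.4 to 558.1 CPM after PBS at day 14, and all 15 were called higher then. The 16 fibroblast markers differed in sum by -0.037 at day 14 (adjusted p = 0.806), with 5 called higher and 5 lower. All 12 skeletal muscle markers were called higher at day 28, at 27.54 to 3963 CPM in sum after bleomycin and 51.51 to 78.42 CPM after PBS, a difference of 0.451 (adjusted p = 0.995). The median sum was lower after bleomycin, at 50.45 CPM against 67.19 CPM, while the highest bleomycin library lay far above the PBS range. The part of these cells in the values of the Wnt genes was not tested.

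Among the lung ligands, Wnt7a and Wnt7b rose and Wnt2b, Wnt2 and Wnt10b fell. Wnt7b, a ligand made by lung epithelium, stood at 9.22, 11.1 and 13.5 CPM at day 14 after bleomycin, against 3.01, 4.15 and 5.26 CPM after PBS, and the groups did not overlap then or at day 21. Its log2 fold change was 0.45 ± 0.18, 1.38 ± 0.18, 0.95 ± 0.18, 1.37 ± 0.19 and 0.62 ± 0.18 from day 7 to day 42, with adjusted p = 6.64e-10 at day 14 (edgeR). Wnt7a rose from day 7 to day 28, by 0.34, 0.70, 0.36 and 0.68 on the log2 scale, and at day 42 its fold change was 0.07 ± 0.12 (adjusted p = 0.745). Without the 2 libraries numbered 6, the day 28 value was 1.40 for Wnt7b and 0.72 for Wnt7a. A gene on the opposite strand shares exon bases with Wnt7b and was not in the count table, and the same held for Axin2, Lef1, Fzd5, Fzd6, Rspo3, Sfrp2, Wnt5a and Wnt11. The kit marks strand, but whether the counting used it is not given in the sources used here.

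Wnt2b, a ligand that can act through beta-catenin, was lower on all 5 days. It stood at 1.32, 2.34 and 2.66 CPM at day 7 after bleomycin, against 3.44, 4.81 and 8.17 CPM after PBS, and at 1.93, 2.41 and 3.47 CPM at day 42, against 3.66, 4.34 and 5.61 CPM after PBS. The groups did not overlap at days 7, 14, 21 and 42. The log2 fold change was -1.26 ± 0.20, -1.42 ± 0.19, -1.25 ± 0.20, -0.59 ± 0.20 and -0.78 ± 0.19 (adjusted p = 3.16e-09 at day 14). Without the 2 day 28 libraries numbered 6, the day 28 value was -0.92.

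Wnt2 took another course and was lowest relative to PBS at the end. It stood at 8.93, 11.6 and 14.1 CPM at day 42 after bleomycin, against 15.9, 20.4 and 23.7 CPM after PBS, with no overlap. The log2 fold change was -0.18 ± 0.11 at day 7 (not called), -0.39 ± 0.11 at day 14, -0.58 ± 0.11 at day 21, -0.32 ± 0.12 at day 28 and -0.81 ± 0.11 at day 42 (adjusted p = 9.5e-09). Wnt10b fell at days 14 to 42, with log2 fold changes of -1.05, -0.92, -0.86 and -0.65. The day 28 values without the 2 libraries numbered 6 were -0.38 for Wnt2 and -1.06 for Wnt10b. Wnt10b stood at 2.54, 3.15 and 5.87 CPM at day 14 after bleomycin, against 5.09, 7.56 and 11.4 CPM after PBS. Wnt10a, with a median under 1 CPM in every lung group, was called lower at day 7 (-3.51) and rose by 2.35 and 2.95 at days 21 and 28. Libraries with epidermal transcripts were 2 of the 8 PBS libraries at day 7, 1 of the 8 PBS libraries at day 14 and 1 of the 7 bleomycin libraries at day 28. Without these 4, Wnt10a gave -0.80 at day 7 (adjusted p = 0.365) and 2.38 at day 28 (adjusted p = 0.000917). Also lost without them were the falls of Lgr5, Lgr4 and Fzd10 at days 7 and 14, of Wnt11 at day 7 and of Fzd3, Wif1 and Wnt9b at day 14.

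Of 9 Frizzled receptors tested in lung, 6 were called lower at day 7, 7 lower and 1 higher at day 14, 3 lower at day 21, 2 lower at day 28 and 1 in each direction at day 42. Among all genes, 17.8%, 25.4%, 19.4%, 18.4% and 6.77% were called lower on these days, and 21.0% and 12.6% higher at days 14 and 42. The calls of Fzd10 at days 7 and 14 and of Fzd3 at day 14 were lost without the libraries with epidermal transcripts. Fzd7 stood at 21.3, 26.8 and 36.4 CPM at day 14 after bleomycin, against 37.6, 49.4 and 52.6 CPM after PBS, and the groups did not overlap at days 7, 14 and 21. On those days the log2 fold change was -0.61 ± 0.08, -0.77 ± 0.08 and -0.41 ± 0.08 (adjusted p = 8.79e-14 at day 14, edgeR), and -0.08 ± 0.08 and -0.11 ± 0.08 at days 28 and 42, neither called. Fzd4, the Frizzled of blood vessels, which also binds Norrin, stood at 87.1, 144 and 167 CPM at day 14 after bleomycin, against 186, 220.0 and 315 CPM after PBS, with no overlap. It was called at days 7, 14, 28 and 42 with log2 fold changes of -0.33, -0.73, -0.36 and -0.45, and at day 28 with -0.51 without the 2 libraries numbered 6. The summed level of 12 endothelial markers was also lower in bleomycin lung, with log2 differences of -0.502 at day 14 and -0.270 to -0.478 on the other days, and 11 of the 12 called lower at day 14, at 2751 to 3455 CPM after bleomycin, against 3718 to 4688 CPM after PBS. The part of these cells in the fall of Fzd4 was not tested. In bulk tissue, fewer cells of a type and less RNA per cell cannot be told apart. Fzd2, Fzd5 and Fzd8 were also called lower at days 7 and 14, with log2 fold changes of -0.60, -0.64 and -0.39 at day 7, and Fzd1 was higher at day 14, by 0.32.

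Of the 4 R-spondins, 2 were called lower in lung at days 14, 21 and 28 and 1 at day 42. Of the 3 Lgr receptors, 3 were called lower at days 7 and 14, 1 at day 21, none at day 28, and 1 in each direction at day 42. From day 7 to day 42, 17.8%, 25.4%, 19.4%, 18.4% and 6.77% of all genes were called lower, and 12.6% higher at day 42. Without the libraries with epidermal transcripts, the Lgr4 and Lgr5 calls of days 7 and 14 were lost and those of Lgr6 were kept. Rspo1 was lower from day 14 on, with log2 fold changes of -0.63, -0.74, -0.55 and -0.66, and at day 28 -0.43 without the 2 libraries numbered 6. It stood at 5.40, 6.20 and 7.55 CPM at day 42 after bleomycin, against 7.94, 9.73 and 12.1 CPM after PBS, with no overlap. Lgr6, a receptor of R-spondins, stood at 4.82, 5.38 and 6.19 CPM at day 7 after bleomycin, against 8.39, 11.3 and 15.3 CPM after PBS. These ranges did not overlap, and the log2 fold change was -1.08 ± 0.18 (adjusted p = 1.74e-06). Rspo4 was called lower at day 14 (-0.94) and Rspo2 on no day. Rspo3 was called lower at days 21 and 28 only, and the day 28 call was lost without the 2 libraries numbered 6 (adjusted p = 0.112). Lgr4 was called lower at days 7 and 14 and higher at day 42 (0.84), where bleomycin replicate 1, the library with liver transcripts, held the highest value (9.90 to 82.3 CPM after bleomycin and 10.5 to 14.7 CPM after PBS), and without the libraries that stood apart the value was -0.0006.

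All 3 feedback genes and Lef1 were called lower in lung at days 7, 14 and 21, Lef1 also at day 28. On these 4 days, 17.8%, 25.4%, 19.4% and 18.4% of all genes were called lower. Axin2 stood at 16.0, 20.2 and 25.1 CPM at day 7 after bleomycin, against 25.8, 34.1 and 37.3 CPM after PBS, with no overlap. At day 14 it stood at 16.7, 19.9 and 28.1 CPM, against 27.5, 33.3 and 39.0 CPM after PBS, where 1 bleomycin library lay within the PBS range. Its log2 fold change was -0.65 ± 0.12, -0.60 ± 0.11 and -0.51 ± 0.12 at days 7, 14 and 21 (adjusted p = 1.03e-05, 6.21e-06 and 0.000291), and -0.26 ± 0.12 and -0.15 ± 0.11 at days 28 and 42 (adjusted p = 0.0865 and 0.4). Znrf3 was lower on all 5 days, at 19.7, 24.8 and 30.1 CPM at day 21 after bleomycin, against 33.8, 39.4 and 49.8 CPM after PBS. Its log2 fold changes were -0.66 ± 0.09, -0.74 ± 0.08, -0.78 ± 0.09, -0.29 ± 0.09 and -0.27 ± 0.08, and -0.40 at day 28 without the 2 libraries numbered 6. Rnf43 was lower at days 7, 14 and 21, with log2 fold changes of -0.44, -0.60 and -0.45, and its groups did not overlap on these days. It stood at 13.0, 14.6 and 17.8 CPM at day 14 after bleomycin, against 20.9, 22.6 and 23.7 CPM after PBS.

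Lef1 stood at 8.06, 10.7 and 13.0 CPM in lung at day 21 after bleomycin, against 19.0, 26.7 and 30.2 CPM after PBS, with no overlap at days 14 and 21. Its log2 fold change was -0.53 ± 0.19, -0.97 ± 0.18, -1.31 ± 0.19 and -0.92 ± 0.20 at days 7 to 28, all called, and -0.42 ± 0.18 at day 42 (adjusted p = 0.0972). Lef1 is also expressed by T cells and B cell precursors. Of 10 lymphocyte markers, 9 were called lower at day 21, with a summed level of 76.6 to 135 CPM after bleomycin, against 177 to 350 CPM after PBS, while at day 7 none of the 10 was called (86.5 to 234 CPM after bleomycin and 78.3 to 246 CPM after PBS). Their part in the Lef1 values was not tested. At day 7 the Lef1 call was lost without the 4 libraries with epidermal transcripts (-0.32, adjusted p = 0.22). At day 28 the Lef1 fold change was -1.31 without the 2 libraries numbered 6.

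Axin2 and Lef1 fell in lung while Frzb rose, and their promoter windows (RefSeq, GRCm38.p6, 250 bases before to 50 after the annotated start) are shown, with the core Tcf/Lef motif CTTTG, or CAAAG on the other strand, in capitals, for a view of the sequence next to their starts. They lie at chr11:108920099-108920398 (plus strand) for Axin2, at chr3:131110047-131110346 (plus strand, the first of 4 Lef1 windows) for Lef1, and at chr2:80447347-80447646 (minus strand) for Frzb.
Axin2: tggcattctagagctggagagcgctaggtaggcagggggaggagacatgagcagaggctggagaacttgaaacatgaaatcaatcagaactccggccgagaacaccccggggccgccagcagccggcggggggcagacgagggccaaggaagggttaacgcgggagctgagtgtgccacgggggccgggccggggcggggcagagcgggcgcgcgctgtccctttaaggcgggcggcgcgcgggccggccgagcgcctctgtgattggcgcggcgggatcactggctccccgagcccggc
Lef1: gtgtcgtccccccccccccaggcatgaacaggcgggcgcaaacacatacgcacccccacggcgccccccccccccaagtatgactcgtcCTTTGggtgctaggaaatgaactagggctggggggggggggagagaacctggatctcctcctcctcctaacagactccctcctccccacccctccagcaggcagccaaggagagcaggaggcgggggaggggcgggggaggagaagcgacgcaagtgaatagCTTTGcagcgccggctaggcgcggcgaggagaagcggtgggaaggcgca
Frzb: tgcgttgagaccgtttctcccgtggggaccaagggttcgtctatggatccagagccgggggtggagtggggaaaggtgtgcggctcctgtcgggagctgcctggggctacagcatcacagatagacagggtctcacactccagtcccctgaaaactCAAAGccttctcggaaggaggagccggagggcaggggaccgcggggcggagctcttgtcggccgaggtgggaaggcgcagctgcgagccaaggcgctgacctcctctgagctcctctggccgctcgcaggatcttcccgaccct
The Axin2 window holds no match, the Lef1 window 2 and the Frzb window 1. Of the 50 genes, 34 had windows in the table, 41 in all, and 19 of these 41 held the core motif, where 53.9% of all 32851 windows of that length did. The longer forms CTTTGAT or CTTTGAA, on either strand, were in 3 of the 41, where 8.65% of all windows held one. A match is a description of letters and not a binding site.

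**Figure D3:**
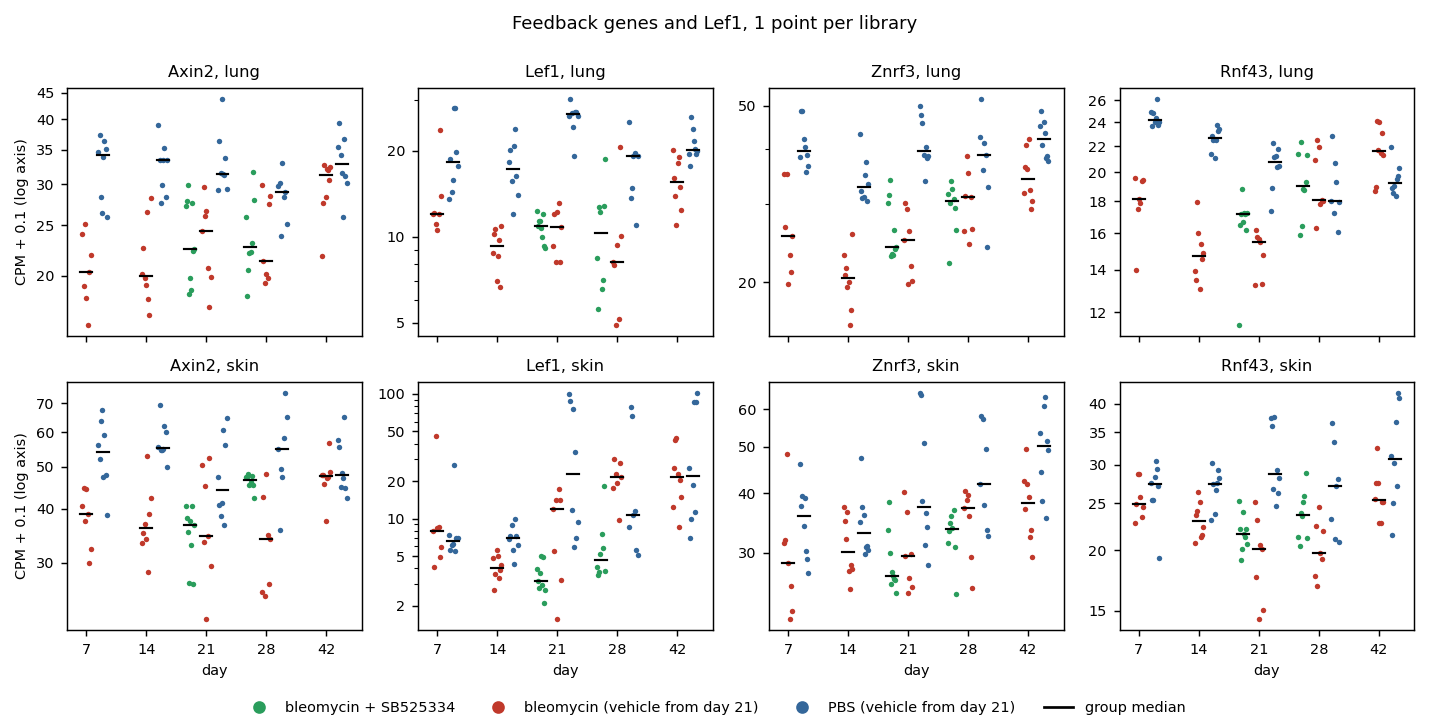
CPM of Axin2, Lef1, Znrf3 and Rnf43 (log axis, 0.1 added) by day in lung (top) and skin (bottom), with 1 point per library and black lines at group medians. In lung, bleomycin libraries lie below PBS libraries for Rnf43 at days 7, 14 and 21 without overlap, and skin Lef1 spreads from 1.47 to 101.3 CPM.

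By day 42, weeks after the last injection, part of the lung pattern differed from that of day 14. For 12 of the 41 genes the bleomycin effect of day 42 differed from that of day 14 (15.3% of all genes), 8 higher and 4 lower (10.7% and 4.67% of all genes). For Rnf43 the effect was higher by 0.76 ± 0.10 on the log2 scale (adjusted p = 6.23e-08, edgeR), Fzd7 by 0.65 ± 0.11, Znrf3 by 0.46 ± 0.12 and Axin2 by 0.46 ± 0.16, and Sfrp1 moved down, at -1.53 ± 0.39 (adjusted p = 0.00346). Wnt7b also moved down, at -0.76 ± 0.25. Wnt2 moved further down, at -0.43 ± 0.15 (adjusted p = 0.0401). For Frzb and Wnt2b no difference was called. Without the 4 libraries with epidermal transcripts, Axin2 and Wnt2 were not called either (adjusted p = 0.0602 and 0.0511).

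With SB525334, none of the 41 lung genes was called at day 21 by edgeR, none was called by DESeq2 or limma voom, none had an unadjusted p under 0.05, and 0.403% of all genes were called (0.179% higher and 0.224% lower). Sfrp1 stood at 24.1, 42.8 and 50.9 CPM in SB525334-treated mice, against 29.5, 47.6 and 80.6 CPM in vehicle-treated mice, and Axin2 at 18.3, 22.4 and 29.8 CPM, against 17.3, 24.3 and 29.5 CPM. These log2 differences were -0.35 ± 0.27 and 0.02 ± 0.11. At day 28, 9 of 41 genes were called (8.37% of all genes), 2 higher and 7 lower (2.64% and 5.73%). Higher were Wnt2 (0.37 ± 0.11 on the log2 scale) and Wnt3a (0.51 ± 0.11). Lower were Frzb (-2.001 ± 0.51, adjusted p = 0.00767), Dkk2 (-1.11 ± 0.30), Wnt7b (-0.75 ± 0.18), Wnt4 (-0.70 ± 0.16), Wnt5a (-0.45 ± 0.13), Fzd1 (-0.36 ± 0.10) and Fzd5 (-0.31 ± 0.09).

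Wnt7b stood at 5.36, 8.16 and 11.6 CPM at day 28 with SB525334, against 4.69, 14.7 and 27.3 CPM with vehicle, and Frzb at 0.268, 0.458 and 0.700 CPM, against 0.216, 1.30 and 5.24 CPM. Both pairs of groups overlapped. The vehicle group is also the one set against PBS at day 28, where these genes gave 1.37 and 2.29, so the 2 comparisons share libraries. Sfrp1, Axin2 and Lef1 were not called, at -0.79 ± 0.29, 0.02 ± 0.12 and 0.14 ± 0.20. None of the 9 calls was made by limma voom with quality weights or when only the 2 groups were fitted, and 3 were made without the libraries that stood apart (Frzb, Wnt2 and Wnt4). That setting left out most libraries of both groups, SB525334 replicates 1, 2, 3, 4 and 6 and vehicle replicates 1, 2, 4 and 5. Without the libraries with epidermal transcripts, of which the vehicle group holds 1, the count was 5, and the calls of Wnt2, Wnt4, Wnt7b and Dkk2 were lost. The sum of the fibroblast markers was lower with SB525334, with log2 differences of -0.278 at day 21 (3447 to 3928 CPM with SB525334 and 4008 to 5279 CPM with vehicle, exact permutation test, adjusted p = 0.00155, 2 of 16 called lower) and -0.389 at day 28 (3047 to 3586 CPM with SB525334 and 3419 to 5799 CPM with vehicle, adjusted p = 0.00408, 5 called lower and 1 higher). At day 28 the 8 adipocyte markers were higher in sum, by 0.965 (104.8 to 266.4 CPM with SB525334 and 42.07 to 182.5 CPM with vehicle, adjusted p = 0.0168, 3 called higher). Of 12 skeletal muscle markers 10 were called lower, at 56.3 to 90.6 CPM in sum with SB525334 and 27.54 to 3963 CPM with vehicle, a difference of -0.322 (adjusted p = 0.995). The median sum was higher with SB525334, at 69.74 CPM against 50.45 CPM with vehicle. The part of these cells in the Wnt genes was not tested.

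In skin, taken at the injected site, falls prevailed through day 21. Among the inhibitors, Sfrp4 stood at 0.402, 1.92 and 4.91 CPM at day 14 after bleomycin, against 11.6, 27.0 and 35.0 CPM after PBS, with no overlap, as for 23.7% of all genes in either direction. Log2 fold changes were -1.28 ± 0.45, -3.49 ± 0.47 and -1.68 ± 0.45 at days 7, 14 and 21 (adjusted p = 1.41e-09 at day 14, edgeR), and -0.85 ± 0.44 and 0.74 ± 0.42 at days 28 and 42, neither called. Sfrp1 stood at 25.8, 29.9 and 33.3 CPM at day 14 after bleomycin, against 46.2, 75.2 and 101 CPM after PBS, and did not overlap at days 14, 21 and 28. Its log2 fold changes on those days, -1.35 ± 0.20, -1.48 ± 0.21 and -0.64 ± 0.21, were opposite in sign to those in lung.

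Sfrp2 changed direction in skin. It stood at 2.15, 5.80 and 9.38 CPM at day 14 after bleomycin, against 16.9, 23.1 and 58.8 CPM after PBS, and at 28.6, 63.7 and 108 CPM at day 28, against 3.61, 34.2 and 48.1 CPM after PBS. The groups were apart at day 14 and overlapped at day 28. The log2 fold change of Sfrp2 was -2.37 ± 0.44 and -2.23 ± 0.42 at days 7 and 14, 0.22 ± 0.41 at day 21 (not called), and 1.29 ± 0.43 and 1.41 ± 0.40 at days 28 and 42 (adjusted p = 0.0187 and 0.0167). Dkk2 stood at 7.65, 12.8 and 19.8 CPM at day 14 after bleomycin, against 40.7, 45.7 and 49.5 CPM after PBS, with no overlap at days 7 and 14. Its log2 fold changes were -1.17 ± 0.22 and -1.79 ± 0.21 on these days, and it was not called later. Dkk3 was lower at day 14 (-0.58) and rose by 0.91 and 0.52 at days 28 and 42. At day 28 all bleomycin libraries were above all PBS libraries for Dkk3, at 93.7, 133 and 153 CPM after bleomycin and 53.3, 67.7 and 93.2 CPM after PBS, where 5.06% of all genes did not overlap.

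The summed level of 16 fibroblast markers also changed in skin, lower at days 7 and 14 and higher from day 21 on. Not all of these inhibitors took that course, as Sfrp1 and Sfrp4 were still lower at day 21. The fibroblast sum was 2904 to 6583 CPM at day 14 after bleomycin, against 11940 to 21960 CPM after PBS, with all 15 tested markers called lower, and 37130 to 46230 CPM at day 28 after bleomycin, against 8163 to 23930 CPM after PBS, with 8 called higher and 3 lower. The log2 differences of the sums were -0.746, -1.423, 0.731, 1.624 and 1.082 on days 7, 14, 21, 28 and 42 (exact permutation tests over libraries, p = 0.00155 at day 14 after adjustment over 210 tests). On the same scale, epidermal markers differed by 0.799 and adipocyte markers by -1.51 at day 14, and skeletal muscle markers by -1.661 and -1.234 at days 7 and 14 and by 3.218 at day 21, when they summed to 3342 to 11870 CPM after bleomycin and 14.4 to 2613 CPM after PBS. No gene of these lists was at 0 in every library of a group. With the mean level of the skeletal muscle list as a term, 16 of the 27 calls of day 21 were made, and those of Lef1, Wnt3a, Wnt5a, Wnt10b, Wnt11, Wnt16, Fzd5, Fzd9, Fzd10, Rspo4 and Wif1 were lost. So were the calls of Sfrp1, Sfrp2, Fzd3, Rnf43 and Znrf3 at day 28, Wnt4 and Wnt7b at day 7, Fzd9 at day 14 and Fzd3 and Fzd4 at day 42. At day 21 the sums of the muscle list did not overlap between the groups, so the term cannot separate muscle from treatment there. The part of these cell types, skeletal muscle among them, in the values of the Wnt genes was not tested.

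Ligands in skin moved in both directions. Wnt5b, a ligand best known for signalling without beta-catenin, stood at 0.722, 1.63 and 2.64 CPM at day 14 after bleomycin, against 3.89, 5.02 and 5.85 CPM after PBS, with no overlap at days 14 and 21. Its log2 fold changes were -0.94 ± 0.17, -1.55 ± 0.17, -1.18 ± 0.17 and -0.56 ± 0.17 at days 7 to 28 (adjusted p = 8.76e-13 at day 14, edgeR), and at day 42 the fold change was -0.37 ± 0.16 (adjusted p = 0.111). Wnt4 rose at days 7 and 14, by 0.38 and 0.84. At day 14 it stood at 36.2, 40.7 and 50.4 CPM after bleomycin, against 21.4, 24.04 and 25.2 CPM after PBS, and it alone among the 45 genes tested had every skin bleomycin library above every PBS library on that day, beside 16 genes with every one below. Of all genes, 23.7% did not overlap in either direction. Wnt10a rose by 0.46 at day 14. Wnt16 stood at 8.74, 11.6 and 14.4 CPM at day 28 after bleomycin, against 1.62, 6.03 and 7.42 CPM after PBS, a rise of 1.13 ± 0.24 with no overlap. Wnt7b, which rose in lung, fell in skin at days 7, 14 and 28 (log2 fold changes of -0.53, -0.72 and -0.76), and Wnt2b fell at days 7 and 14 (-1.05 and -1.16).

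Of the 10 Frizzled receptors in skin, 7 were called lower at day 7, 7 lower and 1 higher at days 14 and 21, 2 lower at day 28 and 1 in each direction at day 42. Among all genes, 20.7%, 28.1%, 21.0%, 11.6% and 4.96% were called lower on these days, and 31.5%, 20.2% and 5.28% higher at days 14, 21 and 42. Fzd4 stood at 26.5, 30.2 and 52.9 CPM at day 14 after bleomycin, against 68.8, 99.8 and 139.9 CPM after PBS, and the groups did not overlap at days 7 and 14. Its log2 fold change was -1.15 ± 0.14 and -1.59 ± 0.13 (adjusted p = 2.29e-17 at day 14, edgeR; -1.46 in plate 1 alone and -1.75 in plate 2 alone), -0.17 ± 0.13 and 0.08 ± 0.14 at days 21 and 28 (not called) and 0.40 ± 0.13 at day 42 (adjusted p = 0.0323). The 12 endothelial markers summed to 302 to 432 CPM at day 14 after bleomycin and 353 to 431 CPM after PBS, a log2 difference of -0.125 (exact permutation test, adjusted p = 0.14), with 4 of the 12 called lower. Fzd1 and Fzd2 fell at days 7, 14 and 21, with log2 fold changes of -0.54, -1.05 and -0.79 for Fzd1 and -0.73, -1.20 and -0.86 for Fzd2. Fzd6 rose by 0.42 at day 14. Fzd7 fell at days 7 to 28, and at day 28 stood at 48.0, 61.3 and 70.5 CPM after bleomycin, against 79.0, 94.5 and 114 CPM after PBS, with no overlap.

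Of the 4 R-spondins, 2 were called lower in skin at days 7, 28 and 42 and 3 at days 14 and 21, and none higher. From day 7 to day 42, 20.7%, 28.1%, 21.0%, 11.6% and 4.96% of all genes were called lower. Rspo1 and Rspo3 were lower on all 5 days, Rspo2 at day 14 (-1.96) and Rspo4 at day 21 (-0.71). Rspo3 stood at 1.67, 2.21 and 2.99 CPM at day 14 after bleomycin, against 6.34, 8.57 and 11.1 CPM after PBS, and at 3.89, 4.66 and 6.84 CPM at day 42, against 5.82, 7.03 and 10.8 CPM after PBS. Its groups were apart at days 14 and 28 and overlapped at day 42. The log2 fold change of Rspo3 was -1.07 ± 0.20, -1.93 ± 0.20, -0.74 ± 0.20, -1.22 ± 0.20 and -0.61 ± 0.19, with adjusted p = 1.12e-13 at day 14 and 0.0252 at day 42. Rspo1 stood at 1.24, 2.24 and 3.13 CPM at day 28 after bleomycin, against 4.03, 10.8 and 13.1 CPM after PBS, and its log2 fold change was -0.88 ± 0.29, -1.85 ± 0.28, -1.45 ± 0.29, -2.11 ± 0.31 and -1.39 ± 0.28. Of their receptors, Lgr6 stood at 19.8, 34.9 and 39.2 CPM at day 14 after bleomycin, against 81.1, 96.2 and 122 CPM after PBS, and its log2 fold changes were -0.71, -1.62, -1.22 and -0.77 at days 7, 14, 28 and 42, with no overlap at days 7 and 14. Lgr5, a stem cell marker of the hair follicle, and Lgr4 fell at days 14 and 21 (-1.07 and -1.15 for Lgr5, -0.69 and -0.62 for Lgr4).

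**Figure D4:**
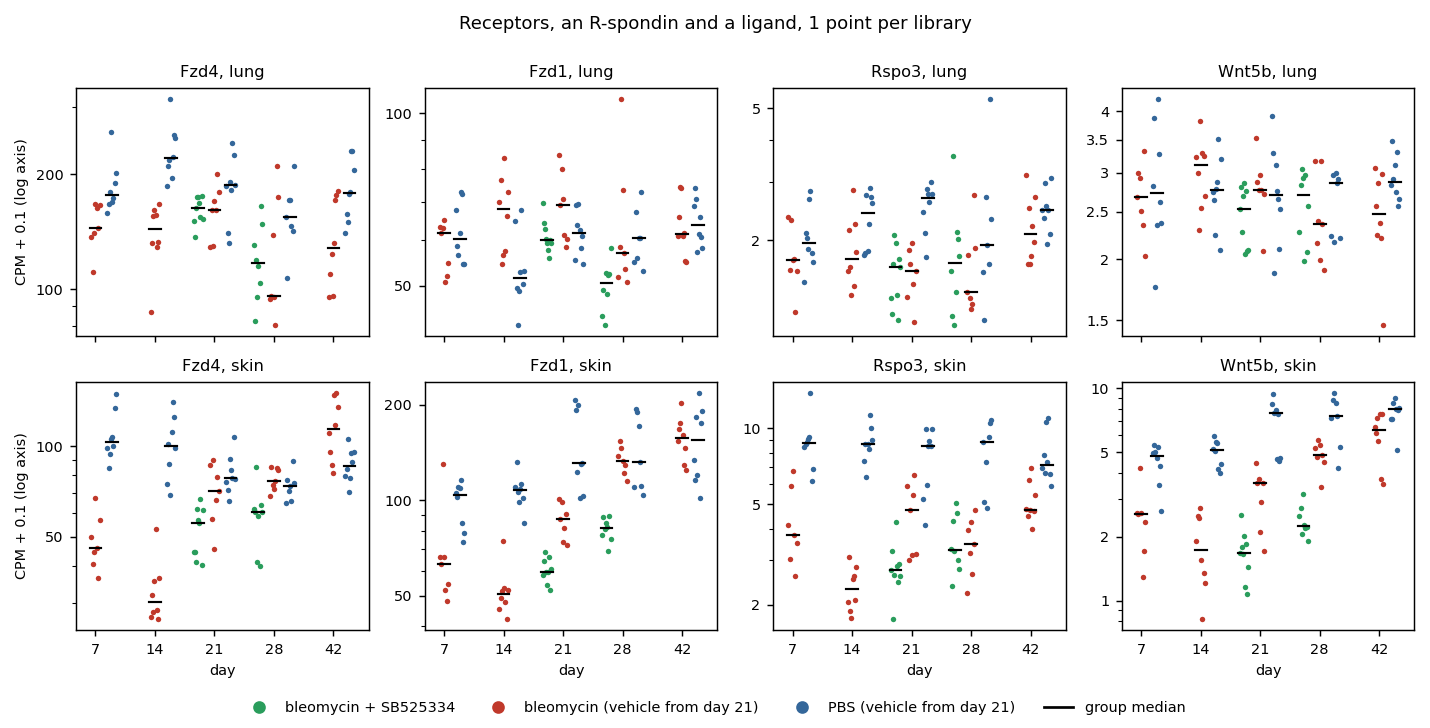
CPM of Fzd4, Fzd1, Rspo3 and Wnt5b (log axis, 0.1 added) by day in lung (top) and skin (bottom), with 1 point per library and black lines at group medians. In skin at day 14 the bleomycin libraries of all 4 genes lie below the PBS libraries, with Fzd4 medians of 30.2 and 99.8 CPM, and at days 21 and 28 SB525334 medians of Fzd1 and Wnt5b lie below those of vehicle.

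Axin2 in skin stood at 28.5, 35.9 and 52.8 CPM at day 14 after bleomycin, against 49.8, 55.1 and 69.2 CPM after PBS, with overlap. Its log2 fold changes were -0.50 ± 0.14, -0.61 ± 0.13, -0.33 ± 0.14 and -0.70 ± 0.14 at days 7 to 28 (adjusted p = 0.00235, 6.11e-05, 0.0455 and 0.000101), and at day 42 its fold change was -0.10 ± 0.13 (adjusted p = 0.638). The groups overlapped on every day. Znrf3 was called lower at days 7, 21, 28 and 42, and Rnf43 at days 21 and 28 (-0.67 and -0.42).

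Lef1 in skin was high where hair growth genes were high. Growing hair follicles are known to express Lef1. The summed level of 22 hair growth genes, such as hair keratins, ran from 119.5 to 54220 CPM (without TMM scaling) over the 93 skin libraries. It varied within groups: at day 42 it was 2363 to 32680 CPM after bleomycin and 165 to 54220 CPM after PBS, and at day 7 each group held 1 high library, at 11590 CPM after bleomycin and 8840 CPM after PBS. In the 17 libraries with more than 10000 CPM of these genes, Lef1 stood at 9.75, 46.2 and 101.3 CPM (lowest, median and highest), against 1.47, 5.45 and 18.6 CPM in the 56 libraries below 1000 CPM. Fzd5 had medians of 85.3 and 20.3 CPM in these sets, Wnt11 of 27.1 and 5.12 CPM, Wnt5a of 89.7 and 33.4 CPM, Fzd1 of 183 and 76.3 CPM, and Axin2 of 42.4 and 45.7 CPM. For Lef1 bleomycin against PBS was called at day 21 alone, at -2.10 ± 0.57 (adjusted p = 0.002), where the groups ranged over 1.47, 11.8 and 17.2 CPM after bleomycin and 5.86, 22.8 and 98.8 CPM after PBS, and 17 of the 22 hair growth genes were called lower. The sum of the list differed by -1.454 on the log2 scale at day 21 (exact permutation test, adjusted p = 0.528). With the mean log2 level of the list as a term, the Lef1 value was -1.16 (adjusted p = 0.000259).

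**Figure D5:**
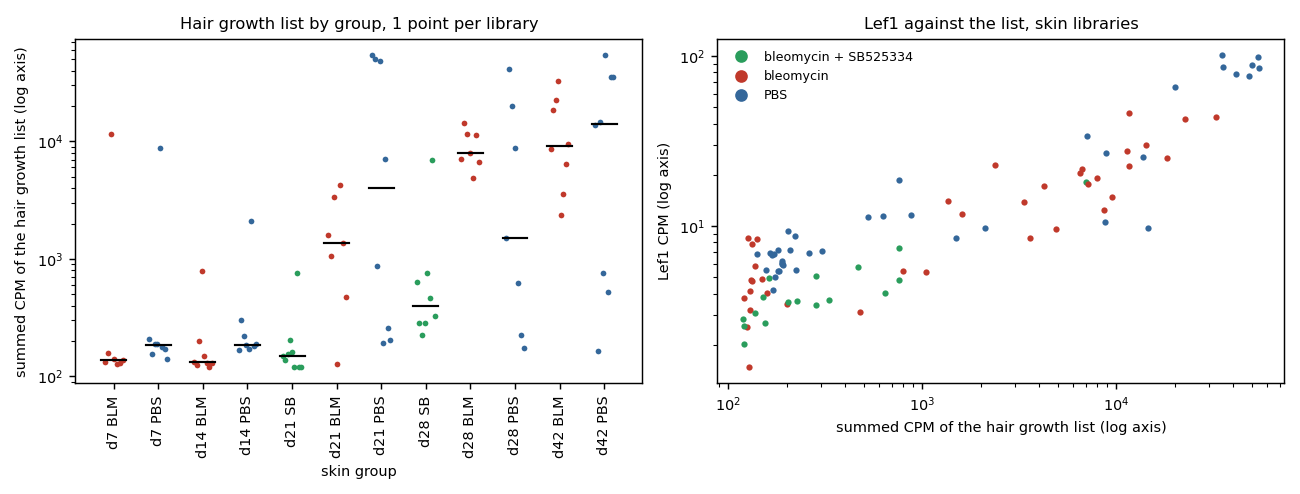
Left, summed CPM of 22 hair growth genes (log axis) in each skin library by group (SB for bleomycin with SB525334, BLM for bleomycin, PBS), with black lines at group medians. Right, Lef1 CPM against that sum (both log axes) in the 93 skin libraries, which runs from 1.47 CPM among low libraries to 101.3 CPM among high ones.

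In skin, more genes were lower than higher with SB525334. At day 21, 14 of 45 were called (11.8% of all genes), 2 higher and 12 lower (5.81% and 6.02%). At day 28, 17 of 45 were called (23.9%), 3 higher and 14 lower (12.2% and 11.6%). Fzd1 stood at 51.9, 59.3 and 68.6 CPM at day 21 with SB525334, against 72.2, 87.3 and 101 CPM with vehicle, and at 69.1, 81.8 and 88.9 CPM at day 28, against 115, 133 and 154 CPM with vehicle. On both days every SB525334 library was below every vehicle library, which 1.06% and 5.92% of all genes showed in either direction. The log2 difference was -0.49 ± 0.13 and -0.73 ± 0.14 (adjusted p = 0.0077 and 4.24e-05, edgeR). Wnt5b stood at 1.82, 2.15 and 3.06 CPM at day 28 with SB525334, against 3.34, 4.74 and 5.59 CPM with vehicle, again with no overlap, and differed by -0.88 ± 0.17 and -1.08 ± 0.17 at days 21 and 28. Also lower on these days were Fzd2 (log2 differences of -0.44 and -0.57), Fzd4 (-0.48 and -0.39), Dkk3 (-0.41 and -0.80) and Lgr5 (-0.92 and -1.59). Without the 2 skin libraries with lung transcripts, of which vehicle replicate 3 is in the day 21 comparison, 9 genes were called at day 21 in place of 14, and the calls of Dkk1, Fzd2, Fzd4, Dkk3 and Rspo1 were lost (adjusted p = 0.144, 0.052, 0.0631, 0.0524 and 0.0564).

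These vehicle groups are also those set against PBS. There, bleomycin over PBS gave -0.79 and -0.10 for Fzd1, -1.18 and -0.56 for Wnt5b and 0.24 and 0.91 for Dkk3 at days 21 and 28. Rspo1 and Rspo3 were lower with SB525334 at day 21 (-0.96 and -0.72), and Rspo2, a low gene, on both days. Wnt4 and Wnt10a were higher at day 21, by 0.54 and 0.38. At day 28, Axin2 stood at 42.3, 46.6 and 47.9 CPM with SB525334, against 25.0, 34.0 and 47.9 CPM with vehicle, a difference of 0.45 ± 0.14 (adjusted p = 0.0123), and Wnt7b and Fzd7 were also higher, by 0.67 and 0.34.

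Hair and fibroblast transcripts moved with the inhibitor too. The summed hair growth list differed by -2.628 and -3.982 on the log2 scale at days 21 and 28 (exact permutation tests, adjusted p = 0.0084 and 0.00353), at 227 to 6953 CPM with SB525334 and 4900 to 14230 CPM with vehicle at day 28, with 4 of its 22 genes called lower on each day and 1 higher at day 28. The fibroblast list differed by -0.757 and -1.139, at 12190 to 31400 CPM with SB525334 and 37130 to 46230 CPM with vehicle at day 28, with 10 and 9 of 15 genes called lower. The part of fibroblasts and of hair follicles in the Wnt genes was not tested. With the mean level of the hair list as a term, the day 28 calls of Lef1 (-0.47 with the term and -1.72 without), Wnt5a, Fzd5, Fzd3, Fzd4, Lgr4, Sfrp1, Wnt7b and Axin2 (0.33 with the term and 0.45 without) were lost, and so was the day 21 call of Lgr5. The day 28 calls of Fzd1 (-0.40), Fzd2 (-0.39), Wnt5b (-0.83), Dkk3 (-0.90) and Lgr5 (-1.07) were made with it. The hair list itself was lower with SB525334, so the term cannot separate hair growth from treatment.

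The skin effects of day 42 differed from those of day 14 for 24 of 45 genes (50.9% of all genes), 21 higher and 3 lower (23.0% and 27.9%). Fzd4 moved up by 1.99 ± 0.18 on the log2 scale (adjusted p = 3.44e-14, edgeR), Dkk2 by 2.36 ± 0.30, Sfrp4 by 4.22 ± 0.62, Sfrp2 by 3.64 ± 0.58 and Rspo3 by 1.32 ± 0.27, and Wnt4 moved down, at -1.04 ± 0.18. Among PBS mice alone, 27 of the 45 skin genes changed across the 5 days (55.2% of all genes), led by Lgr5, Wnt16, Wnt11 and Lef1, and 14 of 41 in lung (21.7%), led by Fzd7. Each bleomycin effect was measured against PBS mice of its own day.

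Bleomycin effects in skin and lung were set against each other in a fit of both tissues. They differed for 16 of 46 genes at day 7 (16.6% of all genes), 5 higher and 11 lower in skin (8.62% and 7.98%), and for 22 at day 14 (32.3%), 6 higher and 16 lower (15.6% and 16.7%). Day 21 gave 17 (30.1%), 1 higher and 16 lower (13.5% and 16.6%), day 28 gave 16 (26.0%), 5 higher and 11 lower (10.6% and 15.4%), and day 42 gave 8 (12.1%), 4 in each direction (4.98% higher and 7.13% lower). Sfrp1 differed on every day, by -1.92 ± 0.36, -3.73 ± 0.35, -3.36 ± 0.36, -1.59 ± 0.37 and -1.35 ± 0.34 (skin minus lung, log2 scale; adjusted p = 2.06e-17 at day 14, edgeR). Frzb did too, with differences of -2.28, -2.999, -3.13, -2.42 and -2.60. Sfrp4 differed by -4.86 ± 0.54 and Fzd1 by -1.42 ± 0.16 at day 14, Wnt7b by -2.18 ± 0.30 and Dkk3 by 1.10 ± 0.19 at day 28. Fzd4 was lower in skin at days 7 and 14 (-0.86 and -0.90) and higher at day 42 (0.86 ± 0.17). For Axin2 no difference between the tissues was called on any day. Without the 2 lung libraries numbered 6, Sfrp1 differed by -2.49 at day 28.

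Other genes of the pathway, 62 in all and none of them among the 50, were counted beside them. In lung 5 were called higher and 23 lower at day 7, 9 and 21 at day 14, 6 and 17 at day 21, 12 and 12 at day 28 and 10 and 6 at day 42, of 62 tested. The calls made up 45.2%, 48.4%, 37.1%, 38.7% and 25.8% of the list, against 31.7%, 46.4%, 35.3%, 38.1% and 19.4% of all genes. At days 14, 21 and 28 these shares were close. The cyclin gene Ccnd1 rose in lung at days 7 to 28, by 0.57, 0.96, 0.63 and 0.41 on the log2 scale, and Ccn4 (Wisp1), a secreted matricellular protein, by 1.61, 1.17, 1.14 and 1.23 at days 14 to 42. Tcf7, the relative of Lef1 in T cells, fell at day 21 (-0.83). In skin 7 were called higher and 22 lower at day 7, 11 and 27 at day 14, 5 and 38 at day 21, 7 and 21 at day 28 and 4 and 7 at day 42, of 60 tested. Here the calls were 48.3%, 63.3%, 71.7%, 46.7% and 18.3% of the list, against 46.2%, 59.6%, 41.2%, 24.3% and 10.2% of all genes. The shares were close at days 7 and 14. Notum, an enzyme that inactivates Wnts by removing their lipid, fell on all 5 days in skin, with log2 fold changes of -1.25, -3.21, -1.92, -1.69 and -1.02. Cthrc1, a collagen-associated protein of activated fibroblasts, rose by 3.08, 4.67 and 3.59 at days 21, 28 and 42, and with SB525334 it was lower in skin at day 28 (-2.08) and in lung at days 21 and 28 (-0.97 and -0.61). The heparan sulfate proteoglycan gene Gpc3 fell in skin at days 7 and 14 (-1.47 and -2.77) and was lower with SB525334 at days 21 and 28 (-1.05 and -1.38).

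Genes most like Axin2 were sought over the 93 libraries of a tissue after group and plate means were removed from log2 CPM. In lung these were Npr1 (Pearson's r = 0.702), Ptch1 (0.699), Nuak1 (0.697), Plekhg5 (0.693) and Kif26a (0.691), and in skin Ptpn14 (0.880), Kmt2a (0.836), Mark2 (0.835), Pdzd2 (0.830) and Apcdd1 (0.824). Of the 50 genes, Fzd7 was the most like Axin2 in lung (0.657) and Lgr6 in skin (0.635). These values describe libraries that share plates and differ in depth and tissue make-up.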

How the data were processed

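RNA was measured by sequencing ribosome-depleted total RNA (a stranded kit, per the labels' protocols) from lung and skin. The deposited expected counts per gene came from RSEM and the deposited log2 values are plate-corrected log2 CPM from edgeR, on GRCm38, per the submitters' processing notes; versions are not given in the sources used here. Of 22095 IDs, 21929 had a GENCODE M21 name. Counts (83.7% whole) were rounded, filtered with filterByExpr (minimum count 10), scaled by TMM and tested with edgeR 4.0.16 (R 4.3.3) for each tissue, with 12 groups and plate as terms, and for both tissues jointly. P-values were adjusted by Benjamini-Hochberg over all 15647 genes tested in lung, 15825 in skin and 16585 jointly, and genes with an adjusted p under 0.05 were called. Fold changes are log2, bleomycin over PBS or SB525334 over vehicle, and each SE is the fold change over the square root of its F. Fits were tested on simulated counts. Marker sums were compared by exact permutation tests, two-sided.

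Alternatives were RLE size factors, no filter, DESeq2 1.42.0, limma 3.58.1 voom, other plate terms, a replicate block, fewer groups or libraries, marker lists as terms and the deposited log2 values. Libraries were not paired by replicate number in the main fits. Correlations of same-numbered libraries, within a tissue or between lung and skin, cannot settle whether a number links them. Members and lists were chosen with earlier results of these data known. The rule for named genes took called members by adjusted p, up to 15 per comparison, and levels per group for 17 members; levels given for other members were chosen after their values were seen. Counting error and mouse-to-mouse spread are not separated. The 2 libraries against their labels were found from response genes after the data were seen. Promoter sequences are RefSeq's.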

Additional observations from a re-analysis of the deposited data

Results flagged for a closer look

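Single libraries lay far from the rest of their group in 33 of 408 gene and group combinations (8.09%). The gap to the nearest library was large for the group's range, by a limit set for about 1 in 20 among normal, independent values. These were untransformed CPM of genes that share libraries, so no excess over that rate can be read from the share. Values are CPM of that library and of the one nearest to it.

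In lung, bleomycin day 28 replicate 3 was highest for Sfrp1 (101.6 and 46.1), Fzd1 (105.8 and 73.5) and Lgr6 (15.6 and 9.35), and replicate 2 for Sfrp4 (9.62 and 4.03). The library labelled bleomycin day 28 replicate 6 was highest for Lef1 (20.4 and 9.95), and the library labelled PBS day 28 replicate 6 was highest for Sfrp1 (83.9 and 15.8) and Rspo3 (5.23 and 2.61). PBS day 14 replicate 6, with epidermal transcripts, was highest for Sfrp1 (39.8 and 23.6), Sfrp4 (3.16 and 1.79) and Dkk2 (4.19 and 2.01). Bleomycin day 42 replicate 1, with liver transcripts, was lowest for Axin2 (21.8 and 27.5). Replicates of bleomycin day 7 stood out for Lef1 (replicate 6, highest, 23.5 and 13.7) and Rnf43 (replicate 2, lowest, 13.9 and 17.4), and of SB525334 for Rnf43 at day 21 (replicate 1, lowest, 11.4 and 16.1) and Rspo3 at day 28 (replicate 3, highest, 3.49 and 2.01). PBS replicates were highest for Wnt2 at day 21 (26.0 and 20.3) and day 7 (18.3 and 15.8) and for Fzd4 at day 7 (258 and 200.9).

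In skin, bleomycin day 7 replicate 3, the highest of its group in hair growth genes, was highest for Lef1 (46.2 and 8.45), Fzd1 (129.9 and 66.3), Sfrp1 (86.1 and 51.1) and Znrf3 (48.3 and 31.8), and PBS day 7 replicate 5 for Lef1 (26.7 and 7.26). At day 14 bleomycin libraries were highest for Fzd4 (52.9 and 36.4) and Wnt2 (3.06 and 1.69), both replicate 5, and Fzd1 (74.2 and 52.6), and a PBS library for Znrf3 (47.2 and 37.4). With SB525334, replicate 7 was highest for Sfrp4 at day 21 (9.54 and 4.76) and for Lef1 at day 28 (18.1 and 7.47), and replicate 8 lowest for Axin2 at day 28 (42.3 and 45.4). Bleomycin day 21 replicate 1 was highest for Wnt2b (4.88 and 2.22), and PBS day 7 held the highest Rspo3 (13.7 and 9.10) and the lowest Rnf43 (19.2 and 25.3).

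Bleomycin effects that differed between skin and lung, by a test of the difference itself with edgeR and Benjamini-Hochberg adjustment, numbered 16, 22, 17, 16 and 8 at days 7, 14, 21, 28 and 42. The 3 with the smallest adjusted p on each day (skin minus lung, log2) were Sfrp1 (-1.92), Wnt10a (3.63) and Fzd4 (-0.86) at day 7, Sfrp1 (-3.73), Sfrp4 (-4.86) and Fzd1 (-1.42) at day 14, Sfrp1 (-3.36), Fzd1 (-0.99) and Wnt5b (-1.24) at day 21, Wnt7b (-2.18), Dkk3 (1.10) and Wnt7a (-2.63) at day 28, and Fzd4 (0.86), Frzb (-2.60) and Sfrp1 (-1.35) at day 42. Effects that differed between day 42 and day 14 numbered 12 in lung, led by Rnf43 (0.76), Fzd7 (0.65) and Lgr4 (1.54), and 24 in skin, led by Fzd4 (1.99), Dkk2 (2.36) and Sfrp4 (4.22). The lung values of Wnt10a at day 7 and Lgr4 at day 42 were not called without the libraries that stood apart, and the difference of Wnt10a between tissues at day 7 was 0.93 (adjusted p = 0.278) without the 4 lung libraries with epidermal transcripts.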

How the results depend on the processing

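Fold changes called in the main fits were recomputed under each alternative. Of these 4690 values, 4202 kept their direction and call, 469 were no longer called and 19 reversed. Fold changes not called in the main fits were not followed, so gained calls show only in the counts. Of 254 counts of called Wnt genes, 240 stayed within 1.5 times. With the replicate block, 388 of 405 fold changes kept their call and 17 lost it. No count moved by 1.5 times (30 became 29 in lung at day 14, and 29 stayed 29 in skin). Of 102 same-numbered pairs 49 correlated over 0.1, in no comparison did every pair, and 22 libraries correlated best with their own number. Such correlations cannot settle whether a number links libraries. Of 93 same-numbered lung and skin libraries, 15 correlated over 0.1 with group and plate removed, 16 correlated best with their own number, and in none of 12 groups did every pair; taken as a block of pairs with limma, an alternative chosen after seeing the data, 69 of 79 skin minus lung effects kept their call and the counts were 14, 21, 16, 16 and 7 from day 7 to day 42. When only the 2 groups were fitted, the lung day 28 bleomycin count was 0, that of SB525334 in lung at day 28 was 0 and that of bleomycin in skin at day 42 was 4. Without the libraries that stood apart, the 2 lung day 28 counts were 11 and 3. Without only the 4 lung libraries with epidermal transcripts, also chosen after seeing the data, 31 of 246 fold changes lost their call and 3 reversed, and SB525334 gave 5 in lung at day 28. With limma voom, SB525334 gave 0 in lung at day 28 and 22 and 28 in skin at days 21 and 28, the day 42 minus day 14 difference in lung gave 23, and PBS lungs across days 22. With the hair list as a term, bleomycin gave 28 in skin at day 28 and 19 at day 42. Without 2 skin libraries high in lung transcripts, an alternative chosen after seeing the data, SB525334 gave 9 at day 21 in skin. With the skeletal muscle list as a term, also chosen after seeing the data, 21 of 135 skin fold changes lost their call, among them Lef1 and Wnt16 at day 21 and Sfrp1 and Sfrp2 at day 28.

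Reversals were most common in plate 2 alone for lung at day 28, where this plate holds only replicates 6 and 7 of each group: Dkk2 -0.37, Frzb -0.16, Fzd4 0.13, Lef1 0.02, Sfrp1 -0.90, Wnt2b 0.0566, Wnt4 -0.46 and Znrf3 0.0174, and Lgr4 at day 42 -0.25 (log2). Without the libraries that stood apart, lung Sfrp4 was -0.0949 at day 28 and Lgr4 -0.0006 at day 42. In plate 1 alone, skin Frzb was 0.07 at day 7 and Axin2 0.0023 at day 21. With voom, the skin minus lung effect was -0.0755 for Lgr5 and -0.10 for Wnt3 at day 7 and -0.33 for Wnt3 at day 14. Without the libraries with epidermal transcripts, the skin minus lung effect at day 7 was -0.11 for Fzd10, -0.0734 for Lgr5 and -0.83 for Wnt3. The causes were not tested. Members under 1 CPM, such as Frzb and Wnt10a in PBS lung, rest on few reads, and at 7 to 9 libraries a missed call does not show that a level was alike.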
